A study of Homo sapiens with 6 samples.

Results

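Desmosomes are the button-like junctions through which neighbouring epithelial cells couple their intermediate filaments. The genes described here encode their parts and 2 related linker proteins: the desmosomal cadherins DSG2, DSC2 and DSC3, the armadillo proteins JUP (plakoglobin), PKP2, PKP3 and PKP4 (plakophilins), and the plakins DSP (desmoplakin), PPL (periplakin) and EVPL (envoplakin). They were taken by symbol from a list of 10 names. Of the 10, 9 were in the table of 15024 genes, and DSC3 was not analysed here. All 9 passed the filter on low values, which 14343 genes passed in all.

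The RNA came from MDA-MB-231 cells, a widely used line from a triple-negative breast cancer, with a mesenchymal appearance. Its cells had been sorted into 2 populations by the surface proteins CD44 and CD104, the integrin beta4 chain. The 3 CD104high libraries came from CD44+CD104high cells and the 3 CD104low libraries from CD44+CD104-/low cells. All 6 libraries carried the guide sgNT, a non-targeting control guide, and all had received 10 µM forskolin, an activator of adenylyl cyclase and so of protein kinase A, for 14 days. The design text calls the CD104high cells hybrid between the epithelial and mesenchymal states and the CD104low cells mesenchymal, and the comparison asks how their expression differed. Cells without forskolin and MLL3-mutant cells were not analysed here, so the values describe 1 cell line under forskolin. Replicates are labelled biological, and whether they were separate cultures or sorts is not stated. The p-values therefore measure the spread between these samples, which may be technical.

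In a desmosome, desmogleins and desmocollins span the membrane and bind those of the next cell. Plakoglobin and the plakophilins hold the cadherin tails on the inner face, and desmoplakin ties them to keratin or vimentin filaments. Plakoglobin is a close relative of beta-catenin, which holds the classical cadherins of adherens junctions. Periplakin and envoplakin are plakins that pair with each other in the cornified envelope of stratified epithelia and also bind intermediate filaments. In breast epithelium, desmosomes join luminal and myoepithelial cells, and their loss is a known feature of the change towards a mesenchymal state.

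Values are gene read counts that the authors had divided by 1 size factor per library, called normalised read counts here. From 52088604 to 56958065 reads were recovered per library. The sort was checked on ITGB4, the gene of CD104, which averaged 17659 ± 1766 in CD104high and 3079 ± 743 in CD104low libraries (SD, n = 3 each), 5.83-fold higher in CD104high cells (limma adjusted p = 4.1e-05). CD44, selected in both sorts, differed by -0.16 on the log2 scale (limma adjusted p = 0.113). VIM, the vimentin gene and a mark of this mesenchymal line, read 20735 to 23439 in CD104high and 20936 to 21588 in CD104low libraries, and CDH1 was not analysed here. The libraries numbered 3 of both groups stood apart for some genes, which is given below with the cadherins.

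Promoter windows of 250 bases up to the transcription start were available from RefSeq (GRCh38.p14) for 6 of the 10 genes, JUP, DSP, DSG2, DSC2, DSC3 and PKP4, in 9 windows. Those printed belong to plakoglobin, which differed between the sorts, to desmoplakin, the filament anchor, and to the 2 desmosomal cadherins with values, because E-boxes in such promoters are the sites that repressors of the epithelial state (ZEB and SNAI factors) are known to bind. Each reads 5′ to 3′ on the strand of its gene, and capitals mark the E-box CACCTG or its reverse complement CAGGTG.
JUP, chr17:41786712-41786961, minus strand: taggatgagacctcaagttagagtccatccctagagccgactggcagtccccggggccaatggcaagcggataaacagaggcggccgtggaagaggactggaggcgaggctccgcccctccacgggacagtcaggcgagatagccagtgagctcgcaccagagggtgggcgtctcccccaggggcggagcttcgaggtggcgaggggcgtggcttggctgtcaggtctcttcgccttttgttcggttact
DSP, chr6:7541421-7541670, plus strand: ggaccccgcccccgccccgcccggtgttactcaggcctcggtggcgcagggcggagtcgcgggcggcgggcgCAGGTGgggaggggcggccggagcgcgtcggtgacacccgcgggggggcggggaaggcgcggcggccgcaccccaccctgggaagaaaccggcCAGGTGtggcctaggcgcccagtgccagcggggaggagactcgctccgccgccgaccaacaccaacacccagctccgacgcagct
DSG2, chr18:31497927-31498176, plus strand: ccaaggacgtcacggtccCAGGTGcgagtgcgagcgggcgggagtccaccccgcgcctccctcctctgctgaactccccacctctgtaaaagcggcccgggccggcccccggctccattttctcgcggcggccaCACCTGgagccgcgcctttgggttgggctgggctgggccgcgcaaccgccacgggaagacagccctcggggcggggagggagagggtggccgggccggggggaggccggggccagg
DSC2, chr18:31102422-31102671, minus strand: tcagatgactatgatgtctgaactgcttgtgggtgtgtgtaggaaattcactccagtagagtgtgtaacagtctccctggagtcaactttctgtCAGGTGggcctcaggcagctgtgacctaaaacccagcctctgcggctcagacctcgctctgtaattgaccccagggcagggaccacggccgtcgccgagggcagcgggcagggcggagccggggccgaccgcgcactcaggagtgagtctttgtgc
An E-box was found in 4 of the 9 windows, with 2 matches in DSP, 2 in DSG2, 1 in the DSC2 window printed and 2 in the second JUP window, against 17.5% of all 34943 windows of this length. The JUP window printed held no match. Other motifs searched on both strands were the grainyhead-type AACNGGTT (1.49% of all windows), the AP-1-type TGANTCA (6.59%), the cyclic AMP response element TGACGTCA (1.63%) and TATAAA (10.8%), and 0 of the 9 windows held any of them. These are letter matches in short windows and say nothing of binding in these cells. ZEB1, ZEB2, SNAI1 and SNAI2 were not called by limma, and their groups overlapped. Log2 fold changes, CD104high over CD104low, were -0.01 for ZEB1 (limma adjusted p = 0.958) and -0.09 for ZEB2 (0.654). They were -0.34 for SNAI1 (0.546) and 0.15 for SNAI2 (0.295).

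Periplakin and plakoglobin rose in CD104high cells, by 2.86-fold and 2.32-fold. Plakophilin 3 rose by 1.25-fold, and plakophilin 4 fell to 0.829 times its CD104low level. The other 5 genes, EVPL, DSP, DSG2, DSC2 and PKP2, did not pass the test. With limma on log2(value + 1) and a Benjamini-Hochberg threshold of 0.05 over all genes, 3 of 9 genes were called higher, against 12.1% of all genes tested, and 1 of 9 lower, against 11.3%. The median log2 fold change was 0.20 over the 9 genes and 0.01 over all genes tested. By their values alone, 3 genes lay higher in every CD104high library than in any CD104low library (19.9% of all genes did), 1 lay lower in every one (21.3%), and 5 overlapped. Of the 9 genes, 6 had a mean above the median gene, which stood at 1323. The authors' deposited table made the same 4 calls, with adjusted p of 9.3e-20 for PPL, 4.24e-08 for JUP, 0.0118 for PKP3 and 0.0127 for PKP4.

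**Figure D1:**
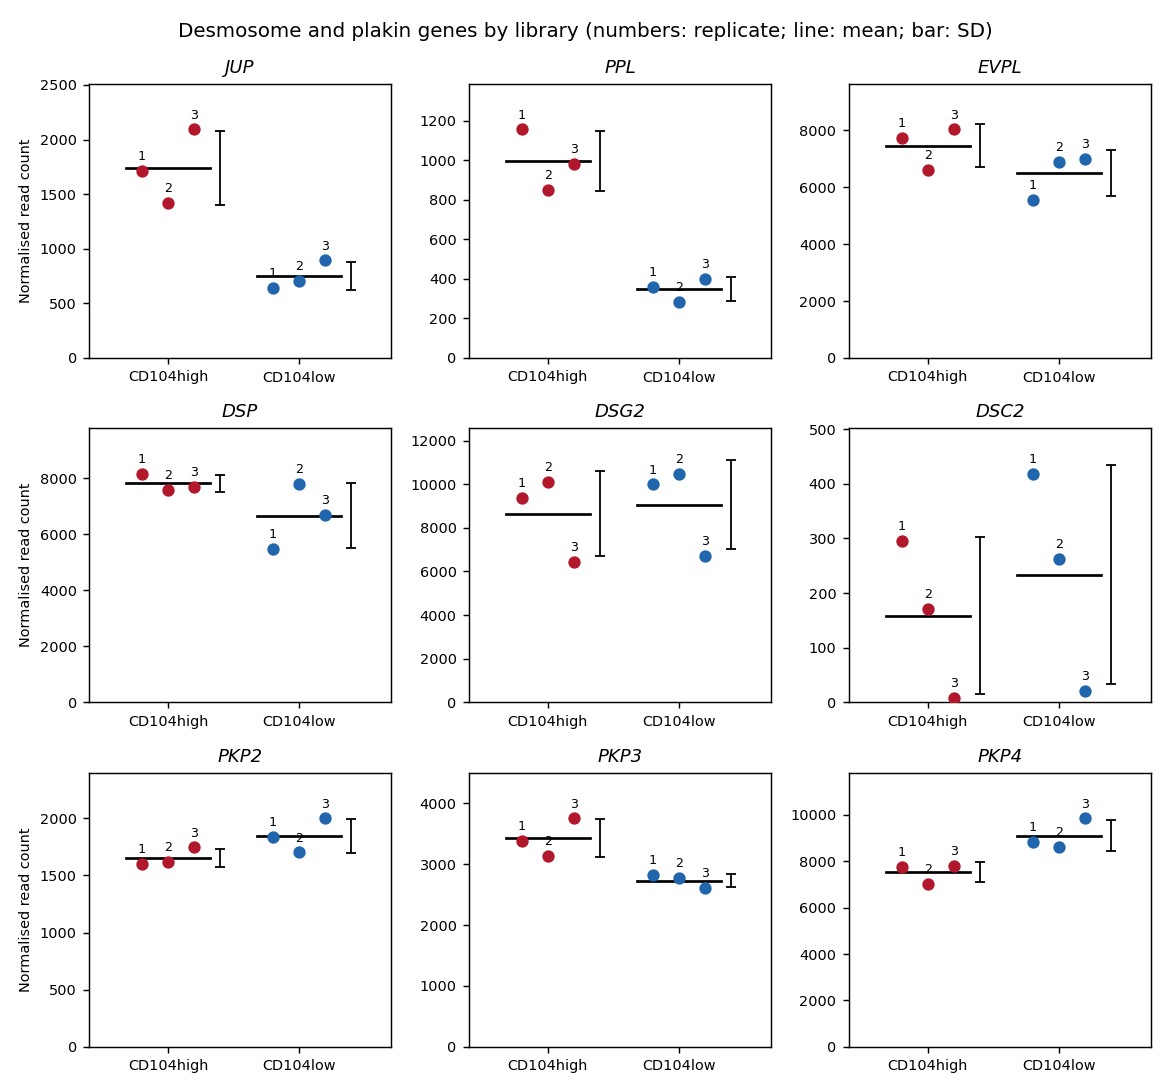
Normalised read count (linear axes from 0) of the 9 genes in each of the 6 libraries, with CD104high on the left and CD104low on the right of each panel; points are libraries with their replicate number, horizontal lines are group means and vertical bars span 1 SD either side. PPL and JUP lie apart by group, while DSC2 and DSG2 have both libraries numbered 3 at the bottom.

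**Figure D2:**
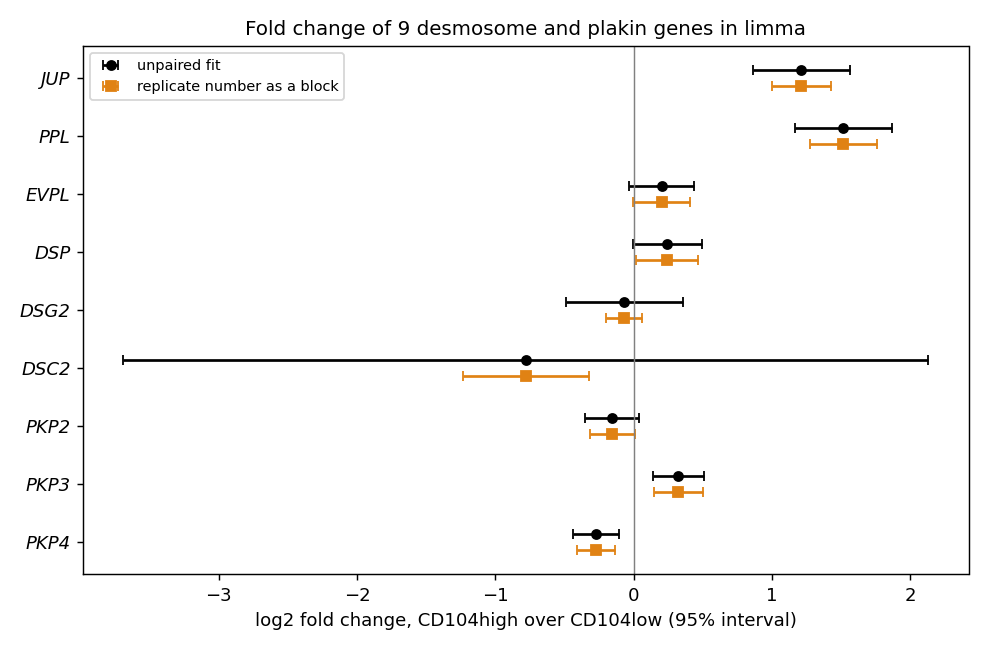
Log2 fold change, CD104high over CD104low, of each gene with its 95% confidence interval from limma on log2(value + 1), for the unpaired fit (black) and the fit that blocks on replicate number (orange). The intervals of PPL and JUP lie far above 0, and that of DSC2 runs from -3.69 to 2.13 unpaired and from -1.24 to -0.32 with the block.

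**Figure D3:**
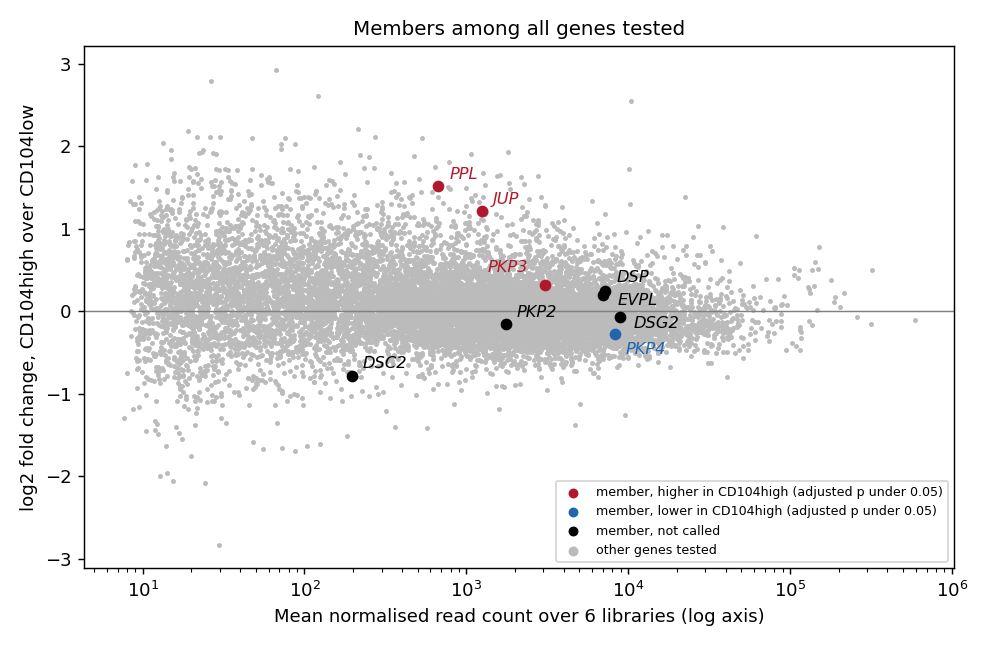
Log2 fold change, CD104high over CD104low, against the mean normalised read count over 6 libraries (log axis), with the 9 genes named in colour or black and all other genes tested in grey. PPL and JUP lie towards the upper edge of the genes at their level, DSC2 lies towards the lower edge, and the others lie within the bulk.

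JUP (chr17:41754604-41786931, minus strand, GRCh38 with GENCODE 29) encodes plakoglobin, which serves in both desmosomes and adherens junctions. Its normalised read counts were 1715, 1416 and 2093 in CD104high replicates 1 to 3 and 644, 707 and 893 in CD104low replicates 1 to 3. Every CD104high library was above every CD104low library. The log2 fold change was 1.21 (SE 0.16, 95% interval 0.86 to 1.56, n = 3 each, limma adjusted p = 0.000939). Within each replicate number the CD104high library was 2.66, 2.00 and 2.34 times the CD104low library.

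Beta-catenin, the closest relative of plakoglobin and a Wnt effector, had a smaller fold change. CTNNB1 read 44088, 46939 and 44809 in CD104high and 38865, 37289 and 34261 in CD104low libraries, with a log2 fold change of 0.30 (limma adjusted p = 0.0159) and no overlap. The ratio of JUP to CTNNB1 counts within a library was 0.0386 ± 0.00827 in CD104high and 0.0206 ± 0.00494 in CD104low libraries (SD, n = 3 each). The ratio was 1.88-fold higher in CD104high cells and did not overlap. In an exact two-sided permutation test over the 6 libraries this gave p = 0.1, which is the smallest p that 3 against 3 allows, and 0.125 after adjustment over the 5 ratios computed.

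Periplakin was the member with the largest fold change of the 9. PPL (chr16:4882507-4960741, minus strand) read 1157, 850 and 984 in CD104high and 359, 285 and 402 in CD104low libraries. Every CD104high library was above every CD104low library. This was a log2 fold change of 1.52 (SE 0.16, 95% interval 1.17 to 1.87, limma adjusted p = 0.000344). Within the replicate numbers the CD104high library was 3.22, 2.98 and 2.45 times the CD104low library.

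Its partner envoplakin did not pass the test. EVPL (chr17:76004502-76027452, minus strand) read 7725, 6606 and 8039 in CD104high and 5557, 6897 and 7009 in CD104low libraries, and the groups overlapped. Its log2 fold change was 0.20 (95% interval -0.03 to 0.44, limma adjusted p = 0.188). It was 0.10 without CD104low replicate 1, and 0.00 (limma adjusted p = 0.993) after the trend of fold change with exon length and GC content was removed across all genes. The ratio of PPL to EVPL was 0.134 ± 0.0143 in CD104high and 0.0545 ± 0.0120 in CD104low libraries, 2.49-fold higher in CD104high cells without overlap (exact permutation p = 0.1, the smallest possible; 0.125 adjusted).

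Desmoplakin, the link from the junction to the filaments, did not pass the test either. DSP (chr6:7541575-7586717, plus strand) read 8162, 7588 and 7702 in CD104high and 5489, 7798 and 6707 in CD104low libraries. CD104low replicate 2 lay among the CD104high libraries. On the log2 scale the fold change was 0.24 (95% interval -0.00 to 0.49, limma adjusted p = 0.141). Without CD104low replicate 2 it was 0.36 and called (limma adjusted p = 0.0331), and without CD104low replicate 1 it was 0.11 and not called.

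The other plakins did not pass the test either. Of 4 tested, 0 were called higher or lower by limma, by edgeR or by DESeq2. At an unadjusted p under 0.05, which 2680 of all 14343 genes tested reached as higher in limma, 1 of the 4 was higher. This was MACF1, a plakin that crosslinks microtubules and actin, with a log2 fold change of 0.29 (limma adjusted p = 0.0946, and 0.0481 with the replicate block). PLEC (plectin, the partner of integrin beta4 in hemidesmosomes) had 0.22 (limma adjusted p = 0.181), EPPK1 (epiplakin) 0.24 (0.476) and DST (dystonin) 0.10 (0.693). In 5 of the 7 plakins, EVPL, DSP, PLEC, DST and MACF1, the lowest of the 6 libraries was CD104low replicate 1. That library was the lowest for 21.5% of all genes tested and for 42.5% of the 1608 genes with at least 10 kb of exon. Removal of the joint trend with exon length and GC content left log2 fold changes of 0.23 for DSP, 0.28 for MACF1 and 0.12 for DST, while those of PLEC and EPPK1 turned to -0.05 and -0.06 (limma adjusted p = 0.709 and 0.859). The GC content of the longest annotated transcript was 67.0% for PLEC and 68.1% for EPPK1, against 47.9% for DSP.

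**Figure D4:**
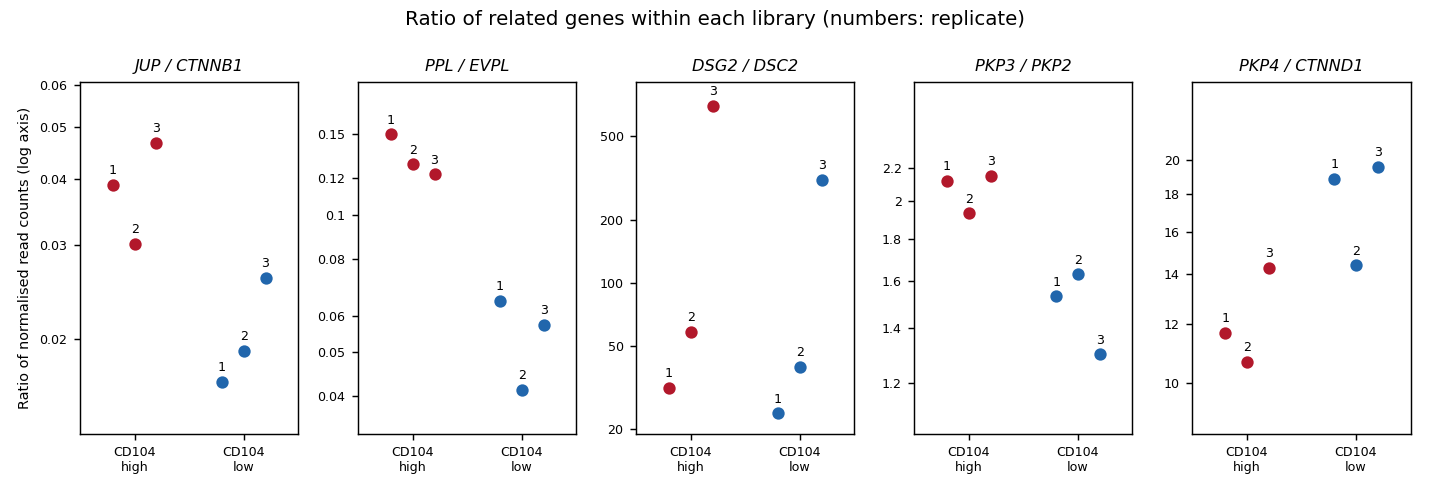
Ratio of normalised read counts within a library (log axis) for 5 pairs of related genes, with CD104high on the left and CD104low on the right; points are libraries with their replicate number. For JUP to CTNNB1, PPL to EVPL and PKP3 to PKP2 all CD104high points lie above all CD104low points, for PKP4 to CTNND1 all lie below, and for DSG2 to DSC2 the groups overlap.

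Of the desmosomal cadherins, DSG2 was abundant and DSC2 scarce, and neither passed the unpaired test. DSG2 (chr18:31498043-31549008, plus strand), the desmoglein of simple epithelia, read 9384, 10126 and 6431 in CD104high and 9993, 10478 and 6710 in CD104low libraries. The groups overlapped, and replicate 3 was the lowest library of each. Its log2 fold change was -0.07 (95% interval -0.49 to 0.36, limma adjusted p = 0.832). Blocking on replicate number narrowed the interval to -0.20 to 0.06 (limma adjusted p = 0.41).

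DSC2 (chr18:31058840-31102522, minus strand), the desmocollin found in most epithelia, read 295, 172 and 8 in CD104high and 418, 263 and 21 in CD104low libraries. Both libraries numbered 3 were far below the other 4, and within each number the CD104high library was the lower, at 0.707, 0.654 and 0.427 times the CD104low library. The unpaired log2 fold change was -0.78 (95% interval -3.69 to 2.13, limma adjusted p = 0.707), and it turned to 0.76 without CD104high replicate 3 and to 0.05 without CD104low replicate 1. With the replicate block it was -0.78 (95% interval -1.24 to -0.32) and called (limma adjusted p = 0.0167), in a fit that called 15.4% of all genes lower. The lowest values stood on 8 recovered reads in CD104high replicate 3 and 20 in CD104low replicate 3.

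The downward shift in the libraries numbered 3 was not shared by the other members. DSC2 averaged 14.4 in those 2 libraries and 287.1 in the other 4, a 19.9-fold difference that was 28.4-fold among CD104high and 16.5-fold among CD104low libraries. Only 3 of the 14343 genes tested (0.0209%) had a shift of that direction at least as large, DSC2 itself counted among them. DSG2 averaged 6570 in the libraries numbered 3 and 9995 in the other 4, a 1.52-fold difference, and 3.75% of genes had at least that. For both genes the libraries numbered 3 lay below the other 4, as they did for 6.57% of all genes, and for the other 7 they did not. JUP went the other way, with replicate 3 the highest library of each group. It averaged 1493 in the libraries numbered 3 and 1121 in the other 4. The ratio of the other 4 to those 2 was 0.751, and 95.2% of genes had at least that. Unpaired, the ratio of DSG2 to DSC2 did not separate the groups (log2 difference 0.71, exact permutation p = 0.6, and 0.6 adjusted). Its sign turned to -0.63 without CD104high replicate 3 and to -0.03 without CD104low replicate 1. For replicates 1 to 3 the ratio was 31.7, 58.6 and 697 in CD104high and 23.8, 39.7 and 311 in CD104low libraries. It was higher in CD104high in all 3 pairs (exact sign-flip p = 0.25, the smallest that 3 pairs allow). What set replicate 3 apart is not given in the labels and was not tested.

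**Figure D5:**
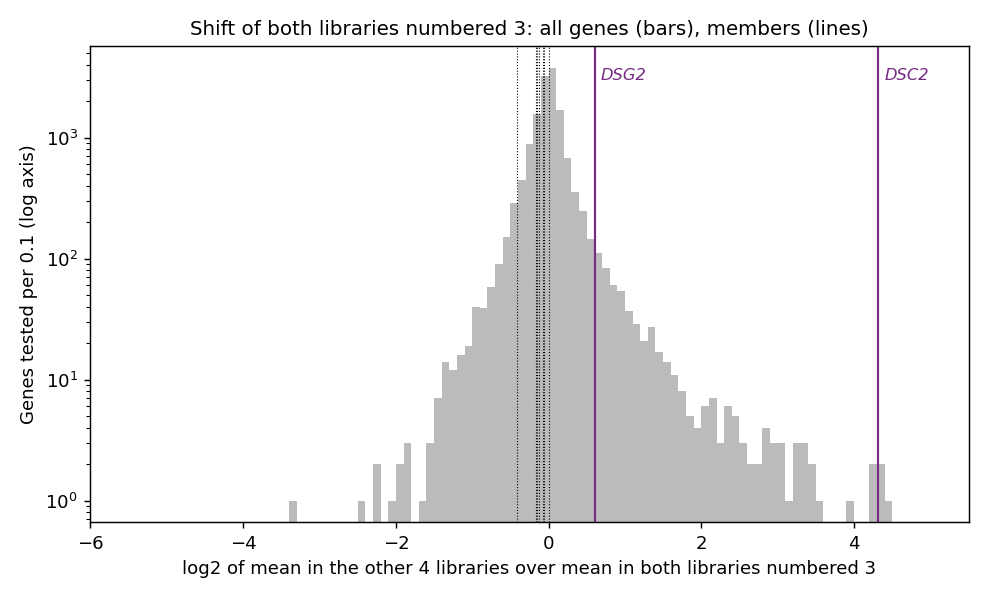
Log2 of the mean normalised read count of the other 4 libraries over that of the 2 libraries numbered 3, with all genes tested as grey bars (number of genes per 0.1, log axis) and the 9 genes as vertical lines. DSC2 lies at 4.32 and DSG2 at 0.61, and the other members lie near or below 0.

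By Pearson r of log2(value + 1) over the 6 libraries, the genes most like DSC2 were SYNE1 (r = 0.997), PLA2G4A (0.996) and NLGN1 (0.994). Those most like DSG2 were CTDSP2 (0.999), TCF7L1 (0.992) and SEL1L3 (0.991). These 2 searches were added after the values were seen, and all 6 libraries share the replicate numbers that shape the pattern. DSG2 and DSC2 lie in a cluster of desmosomal cadherin genes on chromosome 18, together with DSC3, DSC1, DSG1, DSG3 and DSG4, which were not analysed here.

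The plakophilins differed in direction: PKP3 rose, PKP4 fell and PKP2 did not pass the test. PKP3 (chr11:392614-404908, plus strand), a plakophilin of epithelia that binds nearly all desmosomal proteins, read 3386, 3136 and 3751 in CD104high and 2816, 2771 and 2603 in CD104low libraries. There was no overlap. This gave a log2 fold change of 0.32 (SE 0.08, 95% interval 0.14 to 0.51, limma adjusted p = 0.0193). The call was lost without CD104high replicate 1 (adjusted p = 0.0610), without CD104high replicate 3 (0.0708), without both libraries numbered 3 (0.140) and without limma's mean-variance trend (0.0625). It was also lost after removal of the length and GC trend, when the log2 fold change was 0.13 (limma adjusted p = 0.22). The longest annotated transcript of PKP3 had a GC content of 66.7%.

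PKP4 (chr2:158456964-158682879, plus strand), known as p0071 and shared between adherens junctions, desmosomes and the midbody, read 7765, 7032 and 7798 in CD104high and 8821, 8622 and 9844 in CD104low libraries. Every CD104high library was below every CD104low library. The log2 fold change was -0.27 (SE 0.08, 95% interval -0.44 to -0.10, limma adjusted p = 0.0273). The call was lost without CD104high replicate 1 (adjusted p = 0.0625), CD104high replicate 2 (0.109), CD104low replicate 3 (0.0789) or both libraries numbered 3 (0.0952), and without the mean-variance trend (0.0849). The antisense gene PKP4-AS1 shares 418 exon bases with PKP4, 4.39% of its exon length, and DSG2-AS1 shares 171 with DSG2 (2.76%); whether the counting used strand is not given in the sources used here, and these reads cannot be told apart.

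PKP2 (chr12:32790745-32896840, minus strand), the plakophilin with the widest tissue range and the main one of heart muscle, read 1599, 1621 and 1744 in CD104high and 1838, 1700 and 1999 in CD104low libraries. CD104high replicate 3 lay above CD104low replicate 2. The log2 fold change was -0.16 (95% interval -0.35 to 0.04, limma adjusted p = 0.222). The ratio of PKP3 to PKP2 was 2.07 ± 0.116 in CD104high and 1.49 ± 0.168 in CD104low libraries, 1.39-fold higher in CD104high cells (exact permutation p = 0.1, the smallest possible; 0.125 adjusted). The ratio of PKP4 to CTNND1, the p120-catenin of adherens junctions, was 12.2 ± 1.88 in CD104high and 17.6 ± 2.81 in CD104low libraries, a log2 difference of -0.53 (exact permutation p = 0.1; 0.125 adjusted). Neither ratio overlapped between the groups.

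Levels were ordered per kilobase of annotated exon within each group. The annotated exons of all transcripts of a gene were merged, and which transcripts these cells expressed was not tested. In CD104high libraries the mean normalised reads per kb were 1397 for DSG2, 993 for EVPL, 904 for PKP3, 791 for PKP4, 775 for DSP, 352 for JUP, 235 for PKP2, 130 for PPL and 12.7 for DSC2. In CD104low libraries they were 1464 for DSG2, 955 for PKP4, 864 for EVPL, 721 for PKP3, 660 for DSP, 262 for PKP2, 151 for JUP, 45.3 for PPL and 18.7 for DSC2. The ends of the order were shared, and the middle was not: JUP stood above PKP2 in every CD104high library and below it in every CD104low library. Without division by length, JUP was below PKP2 in CD104high replicate 2 as well (1416 and 1621). Among the CD104high libraries the ranges of DSG2 and EVPL, EVPL and PKP3, and PKP4 and DSP overlapped, and those of the other neighbours did not. Among the CD104low libraries the neighbours from PKP4 to DSP overlapped, and the others did not. The genes with the largest called changes, JUP and PPL, were among the 4 lowest by level in both groups. Bulk values cannot tell fewer cells of a type from less RNA per cell.

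Family makeup was computed from the levels per kilobase. Periplakin made up 6.81 ± 0.662% of the summed PPL, EVPL and DSP level in CD104high and 2.94 ± 0.712% in CD104low libraries (SD, n = 3 each). EVPL held 52.3 ± 2.09% in CD104high and 55.1 ± 1.76% in CD104low libraries, and DSP held 40.9 ± 2.14% in CD104high and 42.0 ± 2.41% in CD104low libraries. Of the plakophilins, PKP3 held 46.8 ± 1.17% in CD104high and 37.3 ± 2.58% in CD104low libraries, and PKP4 held 41.0 ± 1.15% in CD104high and 49.2 ± 2.01% in CD104low libraries. By level per kilobase of annotated exon, PKP3 led the plakophilins in all 3 CD104high libraries and PKP4 in all 3 CD104low libraries. This order rests on the merged exon lengths, 9.525 kb for PKP4 and 3.787 kb for PKP3. By normalised read count without that division, PKP4 was above PKP3 in every library. DSC2 was at most 2.03% of the DSG2 and DSC2 sum in any library.

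The genes most like the 2 leading members were named by Pearson r of log2(value + 1) over the 6 libraries. For JUP these were CPNE7, SLC12A7 and ICAM5 (r = 0.996 each), with log2 fold changes of 1.14, 0.81 and 0.85. For PPL they were SCUBE1 (r = 0.999), ALDH3B1 (0.997) and DTX3 (0.997), with log2 fold changes of 1.59, 0.82 and 0.52. The 6 libraries form 2 groups, and these r values carry the difference between them.

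Other desmosomal genes were mostly outside the table: of 10 listed, 4 were tested, and DSG1, DSG3, DSG4, DSC1, PKP1 and CDSN were not analysed here. Of the 4, 2 were called lower and 0 higher, by limma as by edgeR and DESeq2, with 1 higher at an unadjusted p under 0.05. Of all genes, limma called 12.1% higher and 11.3% lower, the shares beside which this and the following lists stand. At an unadjusted p under 0.05, 2680 of the 14343 genes tested were higher and 2612 lower, beside which the unadjusted counts stand. PNN, a desmosome-associated protein that also acts in splicing in the nucleus, had a log2 fold change of -0.24 (limma adjusted p = 0.038), and TCHP (trichoplein), a keratin-binding protein, -0.29 (0.0327). KAZN (kazrin), which binds periplakin, had 0.30 (0.111, and 0.0313 with the replicate block), and PERP, a p53 target at desmosomes, -0.08 (0.642).

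Of 11 adherens junction and armadillo relatives, 1 was called higher and 1 lower, with a median log2 fold change of 0.06; DESeq2 gave the same counts and edgeR called 2 higher. The higher gene was CTNNB1, given above, and the lower was NECTIN1, a nectin of adherens junctions, at -0.35 (limma adjusted p = 0.0406). CDH3 (P-cadherin) had the largest value of the list, 1.39, but missed the threshold (0.0613), and was the gene added by edgeR (adjusted p = 0.0498). CTNND1 had 0.26 (0.193). CDH1, CDH11, CTNNA2 and CTNND2 were not analysed here.

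Among the intermediate filament proteins that desmoplakin and the other plakins bind, 4 of 9 were called higher and 0 lower, by limma as by edgeR and DESeq2. None was lower at an unadjusted p under 0.05, as 2612 of the 14343 genes tested were. Limma called 12.1% of all genes higher and 11.3% lower. KRT19, a keratin of luminal breast cells, read 26913, 26793 and 26359 in CD104high and 19675, 20919 and 19871 in CD104low libraries, a log2 fold change of 0.41 (limma adjusted p = 0.00194) without overlap. The others were KRT86 (0.51, adjusted p = 0.0219), KRT81 (0.31, 0.0198), both hair keratins with near-identical copies, and KRT7 (0.38, 0.0264), a keratin of simple epithelia. Their counts are uncertain where reads could be split between copies. The other 5 were not called. Log2 fold changes were 0.16 for KRT8 (limma adjusted p = 0.228), 0.15 for KRT18 (0.201) and 0.16 for KRT80 (0.258). They were -0.01 for KRT15 (0.984) and 0.07 for vimentin (0.469). The groups overlapped for each of these.

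Of 19 cornified envelope genes listed, 5 were tested: S100A10 was called higher (0.27, limma adjusted p = 0.0203) and 0 were lower, by limma as by edgeR and DESeq2, with 0 lower at an unadjusted p under 0.05. With the replicate block, which called 17.4% of all genes higher, 3 of the 5 were called higher, the added ones being FLG (filaggrin, 0.70, adjusted p = 0.0573 unpaired and 0.0146 with the block) and TGM1 (transglutaminase 1, which crosslinks the envelope, 0.70, 0.103 unpaired and 0.0343 with the block). Of 19 desmosome turnover genes and epithelial regulators, 4 were called higher and 0 lower by limma, edgeR and DESeq2. Limma called 12.1% of all genes higher. The 4 were ADAM10, a sheddase that cuts desmoglein 2 (0.30, adjusted p = 0.00734), FLOT2 (flotillin 2, 0.25, 0.0225), PRKCA (protein kinase C alpha, a regulator of desmosome adhesion, 0.29, 0.0262) and KLF5, an epithelial transcription factor (0.22, 0.0379). At an unadjusted p under 0.05, 1 was lower, GRHL1 (-0.70, limma adjusted p = 0.0944). GRHL1 read 26.8 to 35.6 in CD104high and 44.3 to 51.4 in CD104low libraries.

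Of the 13 calls in these companion lists, KRT19 and ADAM10 kept theirs in all 6 fits that left out 1 library. The other 11 lost it in at least 1: 9 without CD104high replicate 1, 8 without CD104high replicate 2, 4 without CD104high replicate 3, 3 without CD104low replicate 1, 10 without CD104low replicate 2 and 7 without CD104low replicate 3. Adjusted p-values of the lost calls reached 0.145. Removal of the length and GC trend ended the calls of KRT7 (log2 fold change 0.26, limma adjusted p = 0.0563) and PNN (-0.16, 0.0807).

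Markers of other cell types were checked in the same libraries. Of 8 leukocyte markers 1 was in the table, CD14, at 534 to 573 in CD104high and 240 to 263 in CD104low libraries (limma adjusted p = 0.000359), and PTPRC was not analysed here. Of 9 fibroblast and endothelial markers 7 were in the table, with a summed level of 5069 to 7492 in CD104high and 3135 to 5160 in CD104low libraries. Among these, COL1A2 was called higher (2.82-fold, limma adjusted p = 0.00402). LUM had the largest fold change of the list, 4.64-fold, with 162, 201 and 643 in CD104high and 41, 22 and 222 in CD104low libraries (limma adjusted p = 0.0591). With the replicate block 3 of the 4 tested were called higher, in a fit that called 17.4% of all genes higher. They were COL1A2, LUM (limma adjusted p = 0.000413) and PDGFRB (1.54-fold, 0.00102, and 0.128 unpaired). COL1A1, the other gene tested, had a log2 fold change of 0.09 (limma adjusted p = 0.65 unpaired and 0.458 with the block). DCN, PDGFRA and PECAM1 did not pass the filter on low values. Of 9 keratinocyte markers, KRT10 and TP63 were in the table, with sums of 3367 to 3701 in CD104high and 3051 to 4981 in CD104low libraries. The sum was mostly KRT10, with a log2 fold change of -0.14 (limma adjusted p = 0.54) and overlap. TP63 read only 19.6 to 21.7 in CD104high and 7.2 to 17.5 in CD104low libraries. Its groups did not overlap, at a log2 fold change of 0.86 (limma adjusted p = 0.171). The part of these markers in the higher PPL and JUP values was not tested.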

How the data were processed

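RNA of 3 CD104high and 3 CD104low libraries of MDA-MB-231 cells was analysed. The submitters' processing notes name STAR 2.4.0, FastQC, DESeq2 1.30.1, featureCounts 1.5.0 and the build GRCh38.p13 (hg38), with no roles. The authors deposited, per library, a normalised signal: gene read counts over 1 size factor, with 100% of values within 0.1 of a whole number of reads. The unit of 1 read, 0.993 in CD104high replicate 2, is less certain there, so count tests stand as alternatives. The lowest recovered count was 1 read, so a gene with any library at 0 was not analysed here. The authors also deposited a log2 fold change with its standard error, a test statistic (a score) and raw and adjusted p-values.

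The planned test for such values was limma 3.58.1 (in R 4.3.3), using a mean-variance trend, on log2(value + 1), unpaired, with Benjamini-Hochberg adjustment over 14343 genes and a threshold of 0.05. The filter kept genes that reached 10 in 3 or more of the 6 libraries. The added 1 draws the fold changes of low genes towards 0. The limma log2 fold changes of DSC2 and LUM, -0.78 and 2.22, were still further from 0 than those of edgeR, -0.56 and 1.82. Ratios were tested by exact permutation; 6 were planned, and DSC2 to DSC3 could not be computed. The test was tried on simulated data. Alternatives were edgeR 4.0.16 and DESeq2 1.42.0 on recovered reads, other pseudocounts, filters and thresholds, a trend removal for exon length and GC, left-out libraries and a replicate block. Same-numbered libraries deviated together, with correlations of 0.17, 0.32 and 0.48 across genes for numbers 1 to 3. Numbers 1 and 2 were less clearly told apart. CD104high replicate 2 with CD104low replicate 1 gave 0.13, and CD104high replicate 1 with CD104low replicate 2 gave 0.09. Same numbers were taken as pairs on that ground, which the labels do not state. The block p-values therefore rest on pairs read from the same values.

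Exon lengths and spans are from GENCODE 29, matched for 14994 genes. GC content was that of the longest transcript of each gene. Named are all members, up to 4 genes of smallest p per companion list, the sort markers, both genes of each ratio and the 3 genes most like JUP and PPL. The ZEB and SNAI genes, the keratins not called, GRHL1 and COL1A1 are named besides these. Members and lists were chosen with earlier results of these data known.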

Additional observations from a re-analysis of the deposited data

How the results depend on the processing

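JUP and PPL kept their calls in all 17 alternatives. The members called higher numbered 3 in the reported fit and 2 to 4 with single libraries left out. The 1 member called lower, PKP4, became 2 with the replicate block and 2 with the block plus removal of the length and GC trend, in both cases with DSC2 added; that last fit called DSP higher in place of PKP3. The count was 0 without the mean-variance trend, without both libraries numbered 3, at an adjusted p under 0.01 and at a log2 fold change of at least 1, and 0 to 1 with single libraries left out; at an unadjusted p under 0.05 it was 1 without the trend and 2 without the libraries numbered 3, and edgeR and DESeq2 each gave 1. The replicate block changed no other call of a member. Of all genes, 1730 were higher and 1625 lower. The values were 2698 and 2545 with the trend removed and the block, 826 and 610 at 0.01, 333 and 35 at a log2 fold change of at least 1, 1017 to 1766 and 799 to 1547 with single libraries left out, and 936 lower without the trend. With single libraries left out, DSG2 ran from -0.27 to 0.13 and turned sign without CD104high replicate 3 (0.13), CD104low replicate 1 (0.02) and CD104low replicate 2 (0.05). DSC2 ran from -2.09 to 0.76, with 0.76 without CD104high replicate 3 and 0.05 without CD104low replicate 1, and the DSG2 to DSC2 ratio from -0.63 to 1.82, with -0.03 without CD104low replicate 1. Without both libraries numbered 3 the log2 fold changes were -0.07 for DSG2 and -0.56 for DSC2, neither called (limma adjusted p = 0.665 and 0.0941). Within each replicate number both genes were lower in the CD104high library, and the ratio of DSG2 to DSC2 was higher. For DSG2, DSC2 and their ratio the cause of the sign changes was not tested. The lowest DSC2 value rests on 8 reads.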
